A study of Mus musculus with 4 samples.

Results

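The genes described here are 10 secreted regulators of the BMP, activin and TGF-β pathway, 8 ligands (*Bmp2*, *Bmp3*, *Bmp4*, *Bmp6*, *Inhba*, *Tgfb1*, *Tgfb2* and *Tgfb3*) and 2 antagonists (*Grem1* and *Nog*). They were taken by symbol from the 28006 features of the count matrices, and all 10 were found. They were followed across the cell types of the ablated femur (ABL) and the contralateral control femur (CONT). Cells were sorted as tdTomato+ from femurs of *Cxcl12-iCreER; R26R(tdTomato/+)* mice, a genotype that both conditions shared. The iCreER is a transgene driven by *Cxcl12* sequences, so tamoxifen marks cells that express *Cxcl12*, chiefly marrow stromal cells, together with their descendants. Tamoxifen was given 7 days before marrow ablation and cells were collected 7 days after it. For ABL the right knee was opened, the cruciate ligaments were separated, a hole was made between the condyles and the marrow was removed mechanically. For CONT the left femur was not operated on. The age of the mice is not given in the labels. Each condition had 1 library in each of 2 replicates, replicate 1 from pooled mice with Chromium v2 chemistry and replicate 2 with v3, so replicate and chemistry cannot be told apart. Femurs had their ends removed before digestion.

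BMPs, activins and TGF-βs are dimeric ligands of one superfamily that bind paired type I and type II serine/threonine kinase receptors. BMP receptors phosphorylate SMAD1, SMAD5 and SMAD9, whereas activin and TGF-β receptors phosphorylate SMAD2 and SMAD3. Both arms act in bone: BMPs drive osteoblast differentiation and are held back by secreted antagonists such as gremlin and noggin, and TGF-β is stored in the matrix in a latent form and released during remodeling.

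On the mouse genome GRCm38 (GENCODE M21), the ligand genes are *Bmp2* (chr2:133552159-133562885, plus strand), *Bmp3* (chr5:98854415-98884396, plus), *Bmp4* (chr14:46383520-46390669, minus) and *Bmp6* (chr13:38345107-38500302, plus). *Inhba* lies at chr13:16011851-16031621 (plus), *Tgfb1* at chr7:25687002-25705077 (plus), *Tgfb2* at chr1:186622792-186705989 (minus) and *Tgfb3* at chr12:86056745-86079041 (minus). The antagonists are *Grem1* (chr2:113746164-113758646, minus) and *Nog* (chr11:89300638-89302332, minus). Promoters in RefSeq (GRCm38.p6) matched 6 of the 10 genes, *Bmp4*, *Bmp6*, *Grem1*, *Inhba*, *Tgfb1* and *Tgfb2*. The 250 bases before the start of *Inhba*, *Grem1* and *Tgfb2* are shown, since the first was higher in ABL, the second marked reticular cells and the third had its highest mean level in another stromal class. These windows lie upstream of the annotated exons. Each is written 5′ to 3′ in the direction of transcription, and capitals mark the letters TATAAA (*Inhba*, *Tgfb2*) or GGCGCC (*Grem1*, a palindrome found in BMP-responsive SMAD sites).
Inhba, chr13:16011601-16011850, plus strand: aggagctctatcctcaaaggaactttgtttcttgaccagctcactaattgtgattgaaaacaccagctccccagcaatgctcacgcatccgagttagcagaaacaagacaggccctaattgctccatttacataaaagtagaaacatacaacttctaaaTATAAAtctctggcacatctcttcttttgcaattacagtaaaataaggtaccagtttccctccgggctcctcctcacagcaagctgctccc
Grem1, chr2:113758649-113758898, minus strand: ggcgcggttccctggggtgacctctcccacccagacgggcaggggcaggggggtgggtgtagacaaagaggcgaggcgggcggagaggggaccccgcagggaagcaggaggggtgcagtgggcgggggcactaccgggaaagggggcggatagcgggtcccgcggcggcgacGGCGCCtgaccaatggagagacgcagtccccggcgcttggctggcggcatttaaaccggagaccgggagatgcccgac
Tgfb2, chr1:186705990-186706239, minus strand: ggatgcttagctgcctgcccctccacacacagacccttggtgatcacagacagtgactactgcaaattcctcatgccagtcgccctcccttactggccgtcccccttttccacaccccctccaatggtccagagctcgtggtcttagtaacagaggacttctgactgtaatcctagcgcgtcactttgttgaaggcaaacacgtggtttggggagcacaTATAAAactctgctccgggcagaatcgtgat
The letters TATAAA began 91 bases before the start of *Inhba* and 31 bases before that of *Tgfb2*, and were found on either strand in 12.4% of the 32851 mouse promoter windows of this length. GGCGCC began 78 bases before the start of *Grem1*, and 9.59% of all windows held it. CAGACA, a SMAD-binding sequence, was found in *Tgfb2* only among the 6 genes and in 17.1% of all windows. GGGCGG, the core of the SP1 site, was found in *Bmp4*, *Bmp6*, *Grem1* and *Tgfb1* and in 32.7% of all windows. TGANTCA, the AP-1 site, was found in 0 of the 6 and in 6.75% of all windows. A match is a description of these letters and was not tied to any measurement.

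The libraries held 22889380 to 44784072 UMIs and 1459 to 3433 called cells, with median UMIs per cell of 5714 and 7338 in replicate 1 and 12896 and 12283 in replicate 2 (CONT and ABL). CONT and ABL of replicate 1 shared 5 cell barcodes, those of replicate 2 shared 1, and other pairs shared 0. Mesenchymal cells numbered 1312 and 680 in replicate 1 and 2053 and 1809 in replicate 2, and 95.7 to 97.6% of them had a *tdTomato* UMI. The share of mesenchymal cells with a *Xist* UMI was 49.8% (CONT) and 81.3% (ABL) for replicate 1, but 71.9% and 0.055% for replicate 2. Nearly all ABL cells of replicate 2 thus lacked a transcript that most CONT cells of that replicate had. This goes against paired femurs of the same mice. Cells with a Y-linked and no *Xist* UMI were 24.3% (CONT) and 70.5% (ABL) of mesenchymal cells in replicate 2. In replicate 1 that share was lower in ABL. The mix of female (*Xist*) and male (Y-linked) cells thus differed between CONT and ABL in both replicates, in opposite directions. With all cells of replicate 2, ablation and sex cannot be told apart. Each comparison is also given for each replicate alone. RNA free in the suspension made up an estimated 1.49 to 11.7% of mesenchymal UMIs. Cell classes were named from marker genes, and each name stands for cells like that type. Reticular cells, the *Cxcl12* and *Adipoq* expressing stroma of the marrow, had all 7 of their markers in at least 10% of cells in every library, at summed levels of 24963 to 30917 CPM (counts of a gene for every 1000000 UMIs that its cell class held).

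Of the mesenchymal cells, reticular cells made up 88.5% (CONT) and 58.7% (ABL) in replicate 1, then 96.6% and 19.4% in replicate 2. Cells marked by *Tnn* and *Cthrc1*, here called Tnn-positive, were 4.3% and 13.1% in replicate 1 and 18.5% in ABL of replicate 2. That class moved with the clustering: at resolution 1.5 it held 0.23% and 6.03% in replicate 1 and 40.5% in ABL of replicate 2, and at resolution 0.4 it was not found in replicate 2. In ABL of replicate 2, 192 joint-lining cells (*Prg4*) and 88 chondrocytes (*Acan*, *Col2a1*) were found, and 43.6% of mesenchymal cells were in clusters without a name. The 11 cells of CONT replicate 2 that clustered with joint-lining cells had summed joint-lining markers of 810 CPM against 63173 in ABL and all 5 Schwann cell markers, so none of their levels are given below. They enter only the class mean that ranks *Inhba*, where ABL alone was at 202 CPM. The 8 osteoblasts of CONT replicate 2 had summed osteoblast markers of 36499 CPM against 165123 to 219632 in the other libraries, with 64.7% of their UMIs estimated as free RNA. For osteoblasts of ABL replicate 2 that estimate was 34.3%.

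Among the named classes, the one with the highest mean level differed among the genes, and levels between genes are not compared since reads come from the 3′ ends of transcripts. A library with fewer than 10 cells of a class was left out of its mean, so chondrocytes and osteoblasts were ranked on ABL alone. *Bmp4* and *Bmp6*, which signal through SMAD1, SMAD5 and SMAD9, and the BMP antagonist *Grem1* were highest in reticular cells. *Bmp3*, an atypical BMP made by osteoblasts that opposes osteogenic BMPs, was highest in osteoblasts. *Nog*, a BMP antagonist, and *Bmp2*, an osteogenic ligand, were highest in chondrocytes. *Tgfb1* was highest in monocytes or macrophages, *Tgfb2* in Tnn-positive cells, *Tgfb3* in periosteal cells (11 cells of 1 library), and *Inhba*, which encodes the subunit of activin A, in joint-lining cells. The classes come from clustering the same cells, so these orders are descriptions and were not tested. Clusters without a name were not ranked, and in ABL of replicate 2 some were above the leading class (*Inhba* at 258 CPM in a cycling cluster, *Tgfb3* at 245 CPM in one led by *Dio2*), as was *Bmp2* at 235 CPM in 21 cells of CONT replicate 2. Those 21 cells were also at 38.3 CPM for *Nog* (14 UMIs), against a chondrocyte mean of 28.4. For *Bmp6* they were at 16.4 CPM (6 UMIs), against a reticular mean of 15.99. Another 6 cells of that library had *Tgfb2* at 276 CPM, against a Tnn-positive mean of 173.

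**Figure D1:**
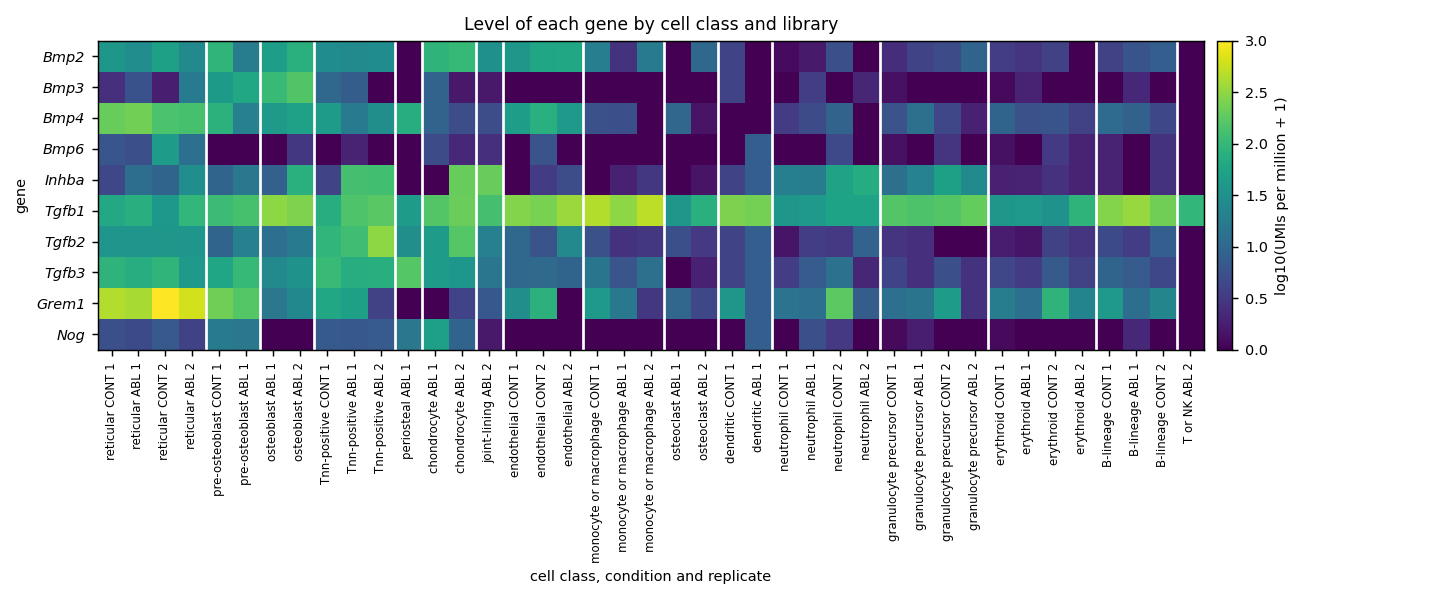
Heatmap of the 10 genes (rows) in each named cell class, condition and replicate with at least 10 cells (columns, white lines between classes), with color as log10(CPM + 1). The cells of CONT replicate 2 that clustered with joint-lining cells are not drawn. *Grem1* and *Bmp4* are brightest in reticular cells and *Bmp3* in osteoblasts. *Inhba* is bright in Tnn-positive cells of both ABL libraries and in joint-lining cells and chondrocytes of ABL replicate 2, while chondrocytes of ABL replicate 1 held 0 UMIs.

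*Grem1*, which encodes the secreted BMP antagonist gremlin, was at 454 CPM (CONT) and 399.9 CPM (ABL) in reticular cells of replicate 1 and at 1073 and 631 CPM in those of replicate 2. Pre-osteoblasts had 222 and 159 CPM (CONT and ABL of replicate 1). Tnn-positive cells had 61.6 and 49.99 CPM in replicate 1 and 2.8 in ABL of replicate 2. The reticular range did not overlap that of either class. After every cell was thinned to 2000 UMIs, a *Grem1* UMI was found in 51.9 and 46.6% of reticular cells in replicate 1 and 71.5 and 53.8% in replicate 2, against 0.33 to 5.52% of hematopoietic cells.

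*Bmp4* was at 202 and 232 CPM in reticular cells of replicate 1 (CONT and ABL) and 141 and 134 CPM in those of replicate 2. Endothelial cells had 47.0 CPM in CONT of replicate 1 and 78.5 and 41.1 in replicate 2, and pre-osteoblasts 83.6 and 19.3 in replicate 1. All 4 reticular libraries were above these values, while endothelial cells and pre-osteoblasts overlapped. Chondrocytes and joint-lining cells of ABL replicate 2 were at 4.2 and 4.1 CPM. Thinned to 2000 UMIs, 17.7 to 30.3% of reticular cells had a *Bmp4* UMI, and at most 1.03% of hematopoietic cells.

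*Bmp6* was at 5.3 and 4.4 CPM in reticular cells of replicate 1 and at 42.8 and 11.5 CPM in those of replicate 2, where CONT alone gave 1125 of the UMIs. In the other named mesenchymal classes it was at most 15.3 CPM, a value from 8 cells called osteoblasts in CONT replicate 2, and 21 cells of an unnamed cluster in that library were at 16.4 CPM (6 UMIs). Tnn-positive cells of ABL replicate 2 held 0 UMIs, which allows up to 0.646 CPM. CONT replicate 2 stood apart from the other libraries.

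In osteoblasts, *Bmp3* was at 136 CPM for CONT (9 cells) and 104 for ABL (59 cells) in replicate 1 and at 151 for ABL (55 cells) in replicate 2. The 8 cells of CONT replicate 2 named osteoblasts, which stood apart in their markers, were at 3.8 CPM. Pre-osteoblasts, cells of the osteoblast lineage before matrix mineralization, had 41.8 and 60.8 CPM. In reticular cells *Bmp3* was at 0.80 to 16.8 CPM, in Tnn-positive cells at 9.2 and 6.6 in replicate 1, and in Tnn-positive cells of ABL replicate 2 there were 0 UMIs. The osteoblast values other than CONT replicate 2 were above those of every other class, and pre-osteoblasts were above reticular cells.

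*Nog* gave 7 and 12 UMIs in the 7 and 15 chondrocytes of CONT and ABL in replicate 1, or 77.2 and 48.4 CPM, and 14 UMIs in the 88 chondrocytes of ABL replicate 2, or 8.3 CPM. Pre-osteoblasts were at 16.7 and 14.8 CPM and reticular cells at 2.9 to 5.8 CPM. An unnamed cluster in CONT of replicate 2 was at 38.3 CPM (14 UMIs in 21 cells). Osteoblasts held 0 UMIs in ABL of both replicates, which allows up to 4.3 and 3.0 CPM. Chondrocyte values spread by more than the distance to the pre-osteoblast values, and the order of these classes rests on few UMIs.

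*Bmp2* was spread over several mesenchymal classes. In ABL, chondrocytes were at 88.8 and 101 CPM and osteoblasts at 46.1 and 80.1. In CONT, chondrocytes held 0 *Bmp2* UMIs in 7 cells of replicate 1 and 0 in 1 cell of replicate 2. Osteoblasts of CONT gave 3 UMIs in 9 cells and 10 UMIs in 8 cells. Pre-osteoblasts of replicate 1 were at 91.9 CPM (CONT) and 17.8 CPM (ABL), and reticular cells at 25.8 to 49.6 over the 4 libraries. Endothelial cells, at 38.1 in CONT replicate 1 and 56.4 and 59.5 in replicate 2, overlapped reticular cells.

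*Inhba* was at 130 CPM in Tnn-positive cells of ABL replicate 1 and 122 in those of ABL replicate 2, against 3.1 CPM (1 UMI) in CONT of replicate 1. Joint-lining cells of ABL replicate 2 had 202 CPM, chondrocytes 200.3 and osteoblasts 79.1. Free RNA was estimated at 15.1%, 1.48% and 34.3% of the UMIs of these classes, and its part in their levels was not tested. Chondrocytes of ABL replicate 1 held 0 UMIs in 15 cells, which allows up to 12.1 CPM. Osteoblasts of ABL replicate 1 were at 7.2 CPM (5 UMIs), below those of CONT (10.4 CPM, 1 UMI). Tnn-positive cells were thus the only named class with a high level in both ABL libraries. Named mesenchymal classes of CONT were at most at 20.1 CPM, and clusters without a name in CONT of replicate 2 reached 38.3 CPM (14 UMIs in 21 cells). Among hematopoietic cells, neutrophils had 18.8 and 17.8 CPM in replicate 1 and 53.0 and 71.1 in replicate 2, whereas erythroid cells had 0.89 to 1.7 CPM. Free RNA was estimated at 23.3 to 55.8% of neutrophil UMIs, the highest in ABL of replicate 2, where empty droplets held *Inhba* at 64.7 CPM, and its part in the neutrophil level was not tested.

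The TGF-β ligands each had another distribution. *Tgfb1*, the main ligand of blood cells and bone matrix, was at 455 and 311 CPM in monocytes or macrophages of replicate 1 and 504 in ABL of replicate 2. Endothelial cells followed at 250.2 to 351 CPM and B-lineage cells at 221 to 341, and these ranges overlapped. Among mesenchymal classes osteoblasts had 198 and 306 CPM in replicate 1 and 263 in ABL of replicate 2, while reticular cells had 39.3 to 96.0.

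*Tgfb2*, a ligand of mesenchyme and cartilage, was at 92.3 and 119 CPM in Tnn-positive cells of replicate 1 and 308 in ABL of replicate 2. Chondrocytes of ABL had 44.4 and 163 CPM. Reticular cells were within 35.4 to 37.5 CPM in all 4 libraries, below each Tnn-positive library. *Tgfb3*, the third of the isoforms, was at 108 and 73.6 CPM in Tnn-positive cells of replicate 1 and 76.2 in ABL of replicate 2, at 58.5 and 101 in pre-osteoblasts and at 41.2 to 91.1 in reticular cells. These 3 classes overlapped for *Tgfb3*, and 11 periosteal cells of ABL replicate 1 were at 159.97 CPM.

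The part of each gene's mesenchymal UMIs that came from reticular cells moved with the share of reticular cells. The median over the 10 genes went from 81.9% (CONT) to 42.2% (ABL) for replicate 1 and from 92.1% to 8.49% for replicate 2. *Grem1* stayed with reticular cells, which gave 96.1 and 83.9% of its UMIs in replicate 1 and 98.6 and 92.9% in replicate 2, although they were 19.4% of mesenchymal cells in ABL of replicate 2. For *Bmp4* the shares were 95.9 and 88.2% in replicate 1 and 98.4 and 50.7% in replicate 2. These 2 genes and *Bmp6* (76.5 and 74.4% of 17 and 43 UMIs in ABL) were above the other 7 genes in both ABL libraries.

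For *Inhba*, reticular cells gave 66.7 and 91.9% of mesenchymal UMIs in CONT but 17.5 and 2.5% in ABL (replicates 1 and 2). Tnn-positive cells gave 73.0% of them in ABL replicate 1. In ABL replicate 2 its UMIs were spread over a cluster with cycling genes that was left without a name (25.1%), joint-lining cells (20.7%), Tnn-positive cells (18.1%), an unnamed cluster led by *Clec3b* and *Mfap5* (14.5%) and chondrocytes (10.7%). The classes that held most *Inhba* thus differed between the ABL libraries. For *Tgfb2*, Tnn-positive cells of replicate 1 gave 11.9% (CONT) and 46.3% (ABL), and those of ABL replicate 2 gave 41.3%. For *Bmp3*, osteoblasts gave 51.8 and 61.1% in ABL.

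**Figure D2:**
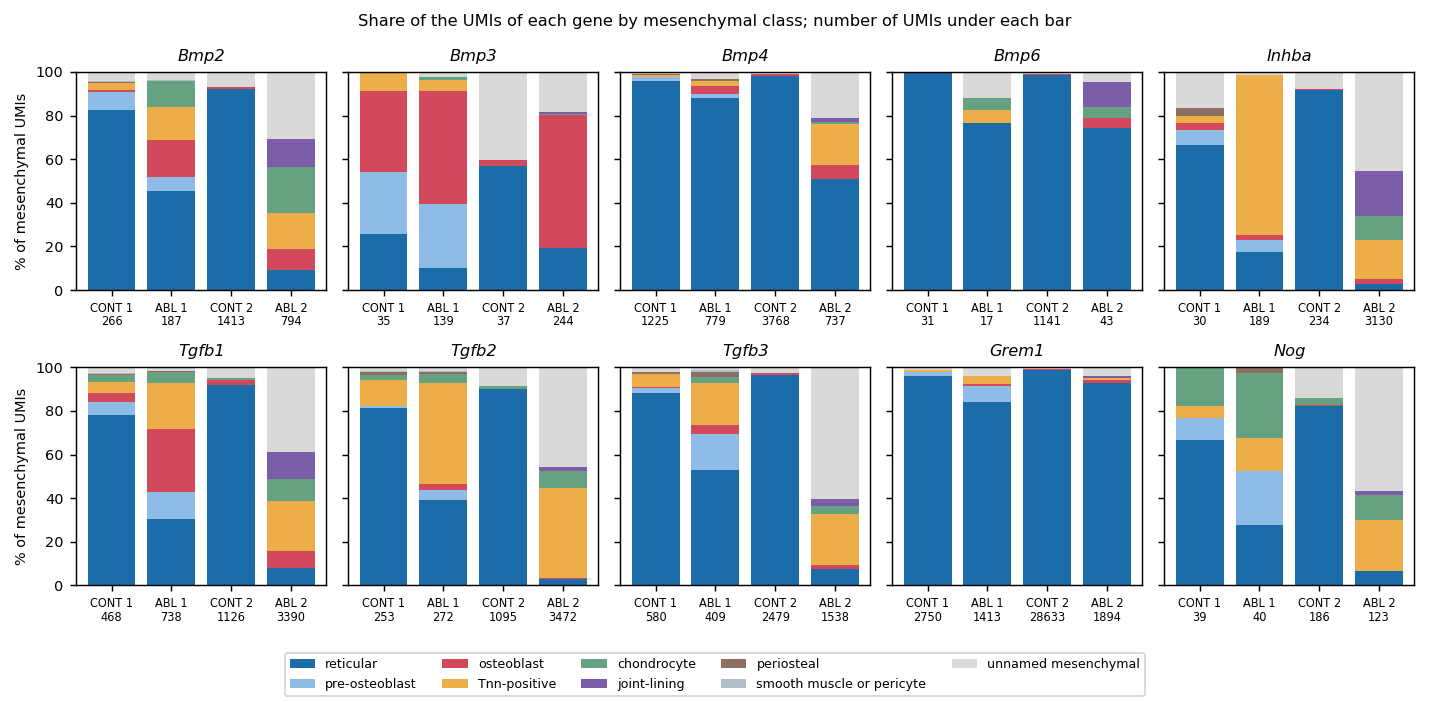
Share (%) of each gene's mesenchymal UMIs that came from each cell class (colors), 1 stacked bar per library with its number of UMIs below. Reticular cells gave 92.9% of *Grem1* but 2.5% of *Inhba* UMIs in ABL of replicate 2.

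The next comparison asks whether these genes changed within reticular cells of the ablated femur. The summed counts of 1161 and 399 cells in replicate 1 and 1984 and 351 cells in replicate 2 (CONT and ABL) were tested with edgeR's quasi-likelihood test, with the replicate as a block. Each SE given for this test was derived from its F statistic, with a variance estimate that borrows from other genes. It is not the spread of the replicates, which can be wider. Of the 10 genes, 2 were higher in ABL (*Inhba*, *Bmp3*), 3 were lower (*Bmp6*, *Tgfb3*, *Bmp2*) and 5 did not pass the threshold (adjusted p of 0.05). Over all 11373 genes tested, 4.81% passed, 2.51% higher and 2.3% lower. The median log2 fold change was -0.35 over the 10 genes and -0.01 over all genes.

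*Inhba* was at 3.4 (CONT) and 11.1 CPM (ABL) in replicate 1 and at 8.2 and 28.3 in replicate 2, from 20, 33, 215 and 79 UMIs. Both ABL libraries were above both CONT libraries. The log2 fold change was 1.66 ± 0.32 (SE, adjusted p = 2.3e-05), and the replicates alone gave 1.54 and 1.73. Summed levels of the 5 Tnn-positive markers in reticular cells, 0 of them without UMIs, were lower in ABL within each replicate (574 against 799.8 CPM in replicate 1 and 235 against 509.7 in replicate 2). Only 1 of the 5 was in at least 10% of reticular cells in both CONT libraries and in ABL of replicate 1. In ABL of replicate 2 it was 2 of the 5, so few genes may carry these sums. Summed levels of the 8 neutrophil markers were lower in ABL too (5966 against 10067 and 107 against 142 CPM), and 2 of the 8 were at 0 in ABL of replicate 2. The 6 chondrocyte markers come from a class in which *Inhba* was high in ABL of replicate 2. They summed to more in ABL, 42.3 and 140.6 CPM in replicate 1 and 5.9 and 51.2 in replicate 2. In CONT of replicate 2, 2 of the 6 were at 0. The part of each of these marker lists in the result was not tested. Empty droplets held *Inhba* at 2.7 and 5.8 CPM in replicate 1 and 10.8 and 64.7 in replicate 2, and *Inhba* still passed after the empty-droplet profile was subtracted (1.52, adjusted p = 0.00041). Thinned to 2000 UMIs, an *Inhba* UMI was found in 0.86 and 0.75% of reticular cells of replicate 1, which did not differ beyond counting error, and in 1.46 and 5.13% of those of replicate 2.

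*Bmp3* was at 1.5 and 4.7 CPM in replicate 1 and 0.80 and 16.8 in replicate 2, from 9, 14, 21 and 47 UMIs. ABL was above CONT in both replicates, on few UMIs. The log2 fold change was 3.27 ± 0.54 (SE, adjusted p = 1.6e-07), but 1.44 in replicate 1 and 4.25 in replicate 2. Both CONT libraries were below the filter on low counts, so *Bmp3* entered this test through ABL alone. It also passed with no such filter. Summed pre-osteoblast markers in the same cells were higher in ABL, 1539 and 3858 CPM in replicate 1 and 1684 and 3255 in replicate 2, and summed osteoblast markers were 4199 and 5523 in replicate 1 and 7252 and 4890 in replicate 2. All 7 markers of each list had UMIs, and their part in the result was not tested.

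*Bmp6* was at 5.3 and 4.4 CPM in replicate 1 and 42.8 and 11.5 in replicate 2, and the conditions overlapped across replicates. It was lower by a log2 fold change of -1.45 ± 0.32 (SE, adjusted p = 0.00043), which was -0.41 in replicate 1 and -1.95 in replicate 2. *Tgfb3* was at 87.9 and 72.8 CPM in replicate 1 and 91.1 and 41.2 in replicate 2, and *Bmp2* at 37.6 and 28.7 and at 49.6 and 25.8. Both ABL libraries were below both CONT libraries for these 2 genes. *Tgfb3* was lower by -0.80 ± 0.24 (log2, SE, adjusted p = 0.024) with -0.41 and -1.20 in the replicates, and *Bmp2* by -0.77 ± 0.24 (adjusted p = 0.032) with -0.53 and -1.0.

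*Tgfb1* was at 62.9 and 76.2 CPM in replicate 1 and 39.3 and 96.0 in replicate 2, higher in both ABL libraries, with a log2 fold change of 0.70 ± 0.24 that missed the threshold (adjusted p = 0.059). *Grem1* had -0.57 ± 0.38 (adjusted p = 0.53) and *Nog* -0.75 ± 0.50 (adjusted p = 0.53), both below CONT in each replicate. *Bmp4* (-0.04 ± 0.28) and *Tgfb2* (-0.12 ± 0.23) had the smallest differences of the 10 genes. All 5 genes that passed had a smaller difference in replicate 1 than in replicate 2. Nearly all ABL cells of replicate 2 lacked *Xist*, and the part of sex in these differences was not tested.

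**Figure D3:**
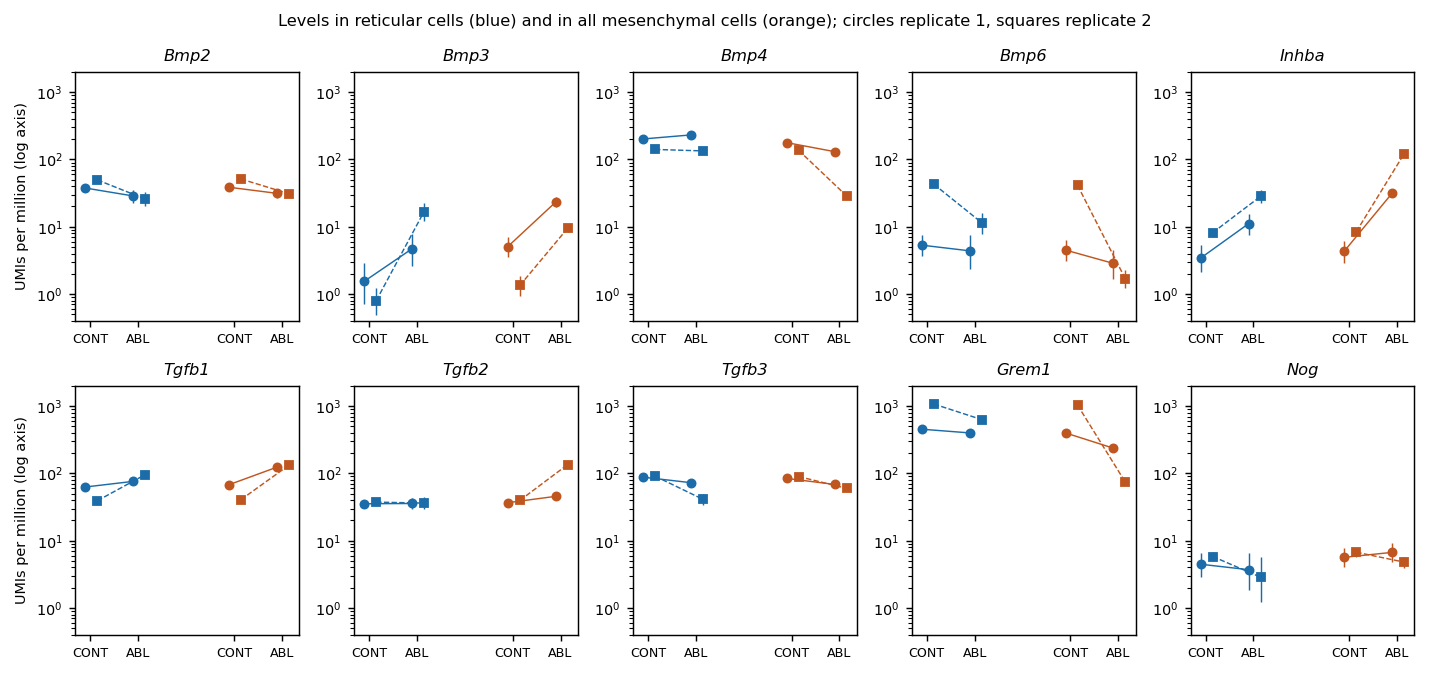
Levels of the 10 genes (CPM, log axis), 1 panel per gene, in reticular cells (blue) and all mesenchymal cells (orange), with a line joining CONT and ABL of replicate 1 (circles, solid) or replicate 2 (squares, dashed) and bars for the 95% Poisson interval. Reticular *Inhba* and *Bmp3* rise from CONT to ABL in both replicates, and reticular *Tgfb2* stays between 35.4 and 37.5 CPM.

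The calls in reticular cells depended on the model. Without the replicate block 0 of the 10 genes passed, and with DESeq2 and the block 1 gene (*Bmp3*) passed. *Bmp2* passed in 5 of 12 alternatives and *Tgfb3* in 7, and both missed the threshold with no TMM, with cells called by the study's filter alone (adjusted p = 0.13 and 0.083) and among cells with a Y-linked and no *Xist* UMI. *Bmp2* missed it also with the stricter filter and at resolution 0.4. *Bmp6* passed in 9 of 12, missing it under the study's filter too (adjusted p = 0.056), and *Inhba* missed it among cells with a Y-linked and no *Xist* UMI (adjusted p = 0.097). That set held fewer reticular cells, 295 and 44 in replicate 1 and 490 and 221 in replicate 2 (CONT and ABL). With library totals in place of TMM, *Tgfb1* passed (adjusted p = 0.021), and calls over all genes moved from 285 higher and 262 lower to 375 and 186.

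All mesenchymal cells were then compared, which asks about the levels in the sorted stroma as a whole, including the change in cell classes. Here 2 of the 10 genes passed, *Inhba* and *Bmp3*, both higher in ABL, against 2.78% of the 13687 genes tested (2.02% higher and 0.767% lower). *Inhba* was at 4.4 and 31.7 CPM in replicate 1 and 8.5 and 122 in replicate 2, from 30, 189, 234 and 3130 UMIs. Both ABL libraries were above both CONT libraries. The log2 fold change was 3.35 ± 0.47 (SE, adjusted p = 0.0029), with 2.77 and 3.85 in the replicates. It was 3.73 (adjusted p = 0.0010) among cells with a Y-linked and no *Xist* UMI.

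*Bmp3* was at 5.1 and 23.3 CPM in replicate 1 and 1.3 and 9.5 in replicate 2, again with ABL above CONT. Its log2 fold change was 2.47 ± 0.50 (SE, adjusted p = 0.017), with 2.11 and 2.80 in the replicates, and 1.71 (adjusted p = 0.22) among cells with a Y-linked and no *Xist* UMI. Osteoblasts, which had the highest *Bmp3* level, numbered 9 and 59 in replicate 1 and 8 and 55 in replicate 2. The Y-linked alternative kept 322 and 75 mesenchymal cells in replicate 1 and 499 and 1275 in replicate 2 (CONT and ABL). Of these, 4 and 2 were osteoblasts in replicate 1 and 1 and 37 in replicate 2.

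The other 8 genes did not pass. *Grem1* was at 399.5 and 237 CPM in replicate 1 and 1038 and 73.9 in replicate 2 (log2 fold change -2.32 ± 0.82, adjusted p = 0.16), and *Bmp4* at 178 and 131 and at 137 and 28.8 (-1.39 ± 0.54, adjusted p = 0.21). *Bmp6* was at 4.5 and 2.9 and at 41.3 and 1.7 CPM (-2.91 ± 0.79, adjusted p = 0.065). These 3 genes were those most carried by reticular cells, and ABL was lower in each replicate, by more in replicate 2. *Bmp6* passed in 7 of 10 alternatives and *Bmp4* in 0. *Grem1* passed in 2, with DESeq2 and among cells with a Y-linked and no *Xist* UMI.

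*Tgfb1* was at 68.0 and 124 CPM in replicate 1 and 40.8 and 132 in replicate 2 (log2 fold change 1.24 ± 0.47, adjusted p = 0.19), and *Tgfb2* at 36.8 and 45.6 and at 39.7 and 135.5 (1.01 ± 0.49, adjusted p = 0.33). For both genes the ABL libraries were above the CONT libraries, while within reticular cells *Tgfb2* was level. *Tgfb2* passed in 1 of 10 alternatives, cells with a Y-linked and no *Xist* UMI (edgeR, adjusted p = 0.039), and *Tgfb1* in 0. *Bmp2* (-0.55 ± 0.40), *Tgfb3* (-0.48 ± 0.43) and *Nog* (-0.18 ± 0.53) differed least. The replicates alone gave 0.16 and -0.48 for *Nog*, -0.38 and -0.72 for *Bmp2* and -0.38 and -0.58 for *Tgfb3*.

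**Figure D4:**
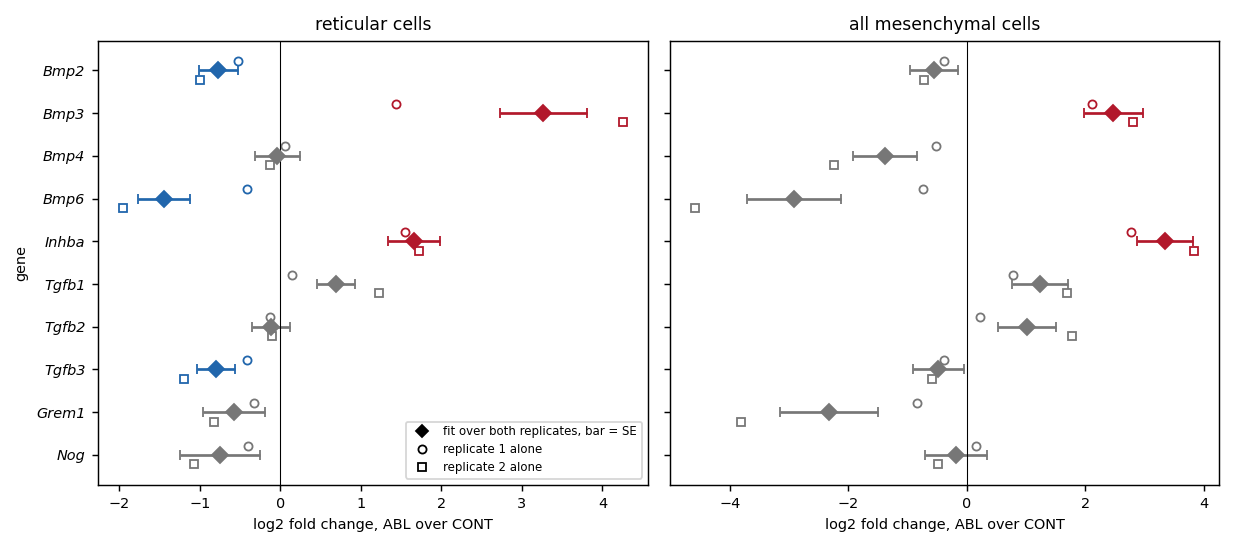
Log2 fold change of ABL over CONT for the 10 genes in reticular cells (left) and all mesenchymal cells (right). Diamonds are the fit with both replicates and bars the SE of that fit, which is not the spread of the replicates. Circles and squares are replicates 1 and 2 alone. Red (higher), blue (lower) and grey (not past an adjusted p of 0.05) mark the call: 5 genes are colored on the left and 2 on the right.

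Hematopoietic cells, which came through the sort, were compared in the same way. Of the 7 genes that could be tested, 1 passed, against 6.46% of the 11979 genes tested (3.87% higher and 2.59% lower). *Grem1* was at 16.8 and 12.02 CPM in replicate 1 and 86.4 and 5.1 in replicate 2, and was lower in ABL (log2 fold change -2.39 ± 0.45, adjusted p = 1.6e-05; -0.63 in replicate 1 and -4.21 in replicate 2). Empty droplets held *Grem1* at 158 and 147.5 CPM in replicate 1 and 639 and 94.8 in replicate 2, in the same order over the libraries. After their profile was subtracted, *Grem1* no longer had enough counts to be tested in these cells. The amount subtracted was set by the reticular markers, so the loss of a reticular transcript was largely built in. The part of free RNA in the difference was not tested. The call was also lost without the replicate block, with DESeq2 and after doublets were removed.

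*Inhba* was at 8.5 and 7.7 CPM in hematopoietic cells of replicate 1 and 30.9 and 14.6 in replicate 2, and its difference was -0.78 ± 0.40 (log2, adjusted p = 0.31). *Tgfb1* was at 106 and 135 and at 100.3 and 202 CPM (0.53 ± 0.41, adjusted p = 0.60). *Bmp4* had -1.25 (adjusted p = 0.20), with -0.10 and -2.91 in the replicates. *Tgfb3* (-0.52), *Bmp2* (0.45) and *Tgfb2* (0.15) did not pass either (adjusted p of 0.74, 0.81 and 0.96). In the 3 hematopoietic classes with at least 10 cells in every library, 0 of the tested genes passed: 0 of 2 in erythroid cells (all genes: 0.791% passed, 0.416% higher and 0.375% lower), 0 of 4 in granulocyte precursors (0.787%, with 0.128% and 0.659%) and 0 of 3 in neutrophils (0.181%, with 0.164% and 0.0164%). At an unadjusted p of 0.05 (edgeR), 1 of the tested members, *Grem1*, passed in each of these classes, with a fit lower in ABL. Beside it, 502 of 7458, 503 of 9407 and 201 of 6084 genes tested passed. In granulocyte precursors *Grem1* was at 0.15 (log2) in replicate 1 and -4.32 in replicate 2. Erythroid cells had -0.40 and -2.27, and neutrophils -0.27 and -4.27. The part of free RNA in these values was not tested. By DESeq2, 0 of the members passed.

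The rest of the pathway was described from lists of 100 other genes. In reticular cells 67 were tested, 7 were higher and 2 lower in ABL, with a median log2 fold change of -0.04. The targets of BMP signalling had the most calls, with 4 of 13 higher and 1 lower, beside 4.81% over all genes. *Id1*, an inhibitor of bHLH factors and a direct BMP target, was at 17.0 and 48.2 CPM in replicate 1 and 7.8 and 45.5 in replicate 2 (log2 fold change 1.95 ± 0.25). *Smad6*, an inhibitory SMAD induced by BMPs, was at 19.6 and 67.8 and at 15.4 and 49.1 CPM (1.63 ± 0.24). *Hey1* (1.21 ± 0.29) and *Atoh8* (1.24 ± 0.38), transcription factors induced by BMPs, were higher as well. Each of these 4 genes was higher in both ABL libraries than in either CONT library. With DESeq2, 4 of the 9 called pathway genes still passed (*Id1*, *Smad6*, *Nbl1* and *Postn*).

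The BMP targets as a list were mixed. Of the 13 tested, 8 did not pass, and 7 of all 13 had a log2 fold change above 0. *Bambi*, a decoy receptor, was lower, at 63.7 and 29.7 CPM in replicate 1 and 46.5 and 24.4 in replicate 2 (log2 fold change -1.12 ± 0.24). *Id3* (0.83, adjusted p = 0.32) and *Id4* (-0.81, adjusted p = 0.13) did not pass and had opposite signs. Of the 10 antagonists tested, *Nbl1*, which binds BMPs, was higher at 16.3 and 40.5 CPM in replicate 1 and 6.1 and 53.8 in replicate 2 (2.17 ± 0.26), and *Crim1*, which binds BMPs at the cell surface, was lower at 95.3 and 69.8 and at 160.5 and 81.0 CPM (-0.82 ± 0.25), besides *Bambi*. *Bmper*, a BMP-binding endothelial regulator, missed the threshold (0.89, adjusted p = 0.051).

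Of 13 receptors and 6 other ligands tested in reticular cells, 0 passed with edgeR's quasi-likelihood test or DESeq2. At an unadjusted p of 0.05 (edgeR), 0 receptors and 2 ligands (*Gdf10* and *Gdf15*) passed, beside 1701 of 11373 genes tested. Receptor values lay between -0.68 (*Tgfbr3*, a co-receptor) and 0.21 on the log2 scale. Of 8 SMADs only *Smad6* passed. Among the 12 genes of latency and activation, *Fbn2*, a microfibril protein that holds latent complexes, was higher at 24.6 and 62.4 CPM in replicate 1 and 24.2 and 46.2 in replicate 2 (1.04 ± 0.23). Of the 12 TGF-β targets, *Postn*, a matrix protein of the periosteum, was higher at 3.6 and 57.0 CPM in replicate 1 and 5.4 and 119 in replicate 2 (4.19 ± 0.27), and the other 11 did not pass.

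**Figure D5:**
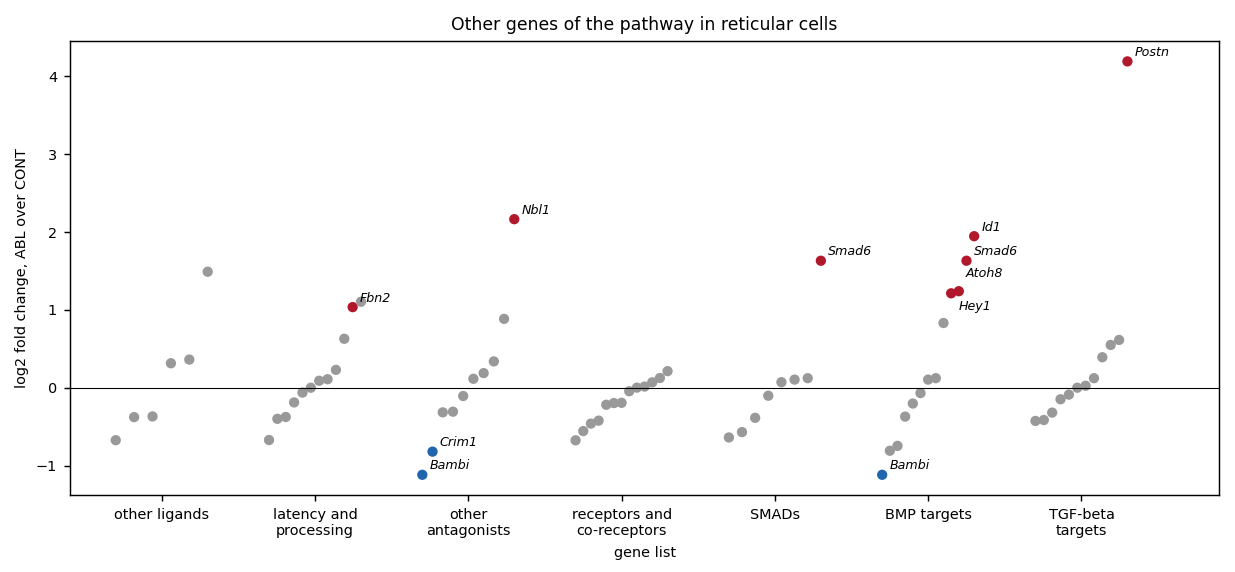
Log2 fold change of ABL over CONT in reticular cells for the tested genes of each pathway list, 1 point per gene, with genes past an adjusted p of 0.05 named and colored (red higher, blue lower) and genes of 2 lists drawn in both. The BMP targets hold 4 named genes above 0 (*Id1*, *Smad6*, *Atoh8*, *Hey1*) and *Bambi* below 0.

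In all mesenchymal cells 78 of the other pathway genes were tested and 4 were higher, 0 lower, beside 2.78% over all genes. *Fstl3*, a secreted inhibitor of activins, was at 2.0 and 7.9 CPM in replicate 1 and 1.4 and 11.5 in replicate 2 (log2 fold change 2.49 ± 0.59, adjusted p = 0.037). *Pcsk6*, a protease that processes TGF-β family precursors, was at 2.8 and 30.4 and at 0.58 and 79.5 CPM (5.26 ± 0.77, adjusted p = 0.0031), and *Postn* at 28.8 and 281 and at 10.7 and 791 (4.71 ± 0.83, adjusted p = 0.0092). *Bmpr1b*, a type I BMP receptor, had 0 UMIs in CONT of both replicates and 0.67 and 2.8 CPM in ABL (adjusted p = 0.024). It met the filter on low counts through ABL alone, so its call is not support for a difference. All 4 were higher in ABL of both replicates. In hematopoietic cells 14 of 57 other pathway genes passed, beside 6.46% over all genes. After the empty-droplet profile was subtracted 2 passed, beside 1.82%. The subtraction was scaled to the reticular markers, so transcripts of reticular cells were lowered by design.

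The genes whose levels followed each member most closely over 46 sums of a class in a library (11439 genes, Pearson's r of log2(CPM + 10)) are given as a description, since sums share libraries and depth. *Grem1* ran with *Kng1*, *Agt* and *Ebf3* (r = 0.94 to 0.95), *Bmp4* with *Fignl2*, *Id4* and *Kalrn* (0.87 to 0.89) and *Bmp6* with *Prkaa2*, *Pawr* and *Ston1* (0.83 to 0.89). *Bmp3* ran with *Slc36a2*, *Chn1* and *Cdh15* (0.95 to 0.96) and *Bmp2* with *Iffo2*, *Abi2* and *Cdkn1a* (0.84 to 0.85). *Inhba* ran with *Zfp365*, *Prg4* and *Cspg4* (0.78 to 0.81), *Tgfb1* with *Atp1b3*, *Mef2c* and *Stx16* (0.75 to 0.79), *Tgfb2* with *Col16a1*, *Ecm2* and *Slc1a4* (0.93 to 0.94), *Tgfb3* with *Fzd1*, *Bicc1* and *Scarf2* (0.93 to 0.94) and *Nog* with *Naaladl2*, *A2m* and *Tenm4* (0.76 to 0.83).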

How the data were processed

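Droplet-based single-cell RNA-seq counts of 4 libraries were analysed. The authors aligned reads with Cell Ranger (3.0.0 in the v3 file headers) to mm10 with transgene sequences and deposited raw UMI counts per feature for all 737280 (v2) or 6794880 (v3) barcodes, with no filter or normalization. Cell calling was repeated here with the thresholds of the study's methods, 500 genes and 20% mitochondrial UMIs for v2 and 1000 genes and 15% for v3, plus a UMI minimum of 1/10 of that library's 99th percentile over its top 3000 barcodes. Free RNA was profiled from droplets holding 300 UMIs or fewer. The amount subtracted was set by blood cell genes in mesenchymal classes and by the reticular markers in other classes. Doublets stayed in; Scrublet (scanpy 1.11.5) called 2 to 78 per library and their removal was an alternative.

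Cells were clustered in Seurat 5.3.0 (R 4.3.3), each library alone, and mesenchymal cells were then integrated by CCA within a replicate (2000 variable genes, 30 components, 20 neighbours, resolution 0.8), leaving out 245 genes, among them the 10 genes reported, the pathway lists and the markers. Clusters were named from 126 markers found in the files; the score thresholds (0.25, margin 0.1) were set after seeing the data. The members and lists were chosen with earlier results of these data known. All 10 members are named for reticular and all mesenchymal cells, and those that could be tested for hematopoietic cells. For reticular and mesenchymal cells, pathway genes are named when past the threshold with the same sign in both replicates. At most 15 with the largest changes are named per comparison. Receptors, SMADs and antagonists not past it may be given with values. For reticular cells, *Id3*, *Id4*, *Gdf10* and *Gdf15* were named outside this rule.

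UMIs were summed per library and class. Levels are CPM, and limits for 0 UMIs are 3 counts of the total; both cover counting error only. Sums of classes with at least 10 cells in every library were tested in edgeR 4.0.16 (quasi-likelihood test, TMM, filter on low counts, replicate as block, Benjamini-Hochberg adjustment over all genes tested, threshold 0.05), with 1 residual degree of freedom. Single values were not tested, since an exact permutation test of 2 against 2 libraries cannot go below p = 0.333. The replicate number stands, by the labels and methods, for contralateral femurs and for the chemistry. However, *Xist* shares differed between CONT and ABL in both replicates, and those of replicate 2 go against femurs of the same mice. Condition is thus mixed with the sex of the cells. Deviations of CONT and ABL from their means correlated within replicates (0.78 for reticular, 0.35 for all mesenchymal and 0.60 for hematopoietic cells). With 2 libraries per condition this compares the difference between replicates in CONT with that in ABL. Chemistry is part of that difference, so the correlation cannot show whether femurs were paired. In simulated data with 200 genes changed by 2 on the log2 scale, 200 were recovered for reticular and 104 for all mesenchymal cells, with 4.31% and 7.14% of calls false. The simulated counts followed the fitted dispersion, with the same change in both replicates and no change in the genes of lowest level. They show the test under its own model and not its error rate in these data, where replicates differed in size of change. Alternatives were no replicate block, DESeq2 1.42.0, no TMM, no filter on low counts, 1 replicate, other cell filters and resolutions, cells with a *tdTomato* UMI, free RNA subtracted, and cells with a Y-linked and no *Xist* UMI.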

Additional observations from a re-analysis of the deposited data

Results flagged for a closer look

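*Inhba* had opposite signs in reticular and hematopoietic cells. Its log2 ratio of ABL to CONT was above 0 in both replicates in reticular cells (1.54 and 1.73) and below 0 in both in all hematopoietic cells (-0.30 and -1.22), where it did not pass the threshold, and the fitted log2 fold changes differed by 2.45. The difference itself was not tested. The sign was not the same in all hematopoietic classes, with 0.81 in neutrophils of replicate 2 and 0.72 in granulocyte precursors of replicate 1.

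Empty droplets, which served only as the profile of free RNA, held more *Bmp3* in ABL, 10.6 CPM in replicate 1 and 6.08 in replicate 2, than in CONT (1.3 and 2.0). They also held more *Tgfb1* in ABL, 106 and 125 CPM, than in CONT (75.7 and 49.7).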

How the results depend on the processing

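The number of members past the threshold depended mostly on the replicate block. Without the block it went from 2 to 0 in all mesenchymal cells, from 5 to 0 in reticular cells and from 1 to 0 in hematopoietic cells, and that of pathway genes from 4, 9 and 14 to 0 in each; over all genes 0 passed, with 1232, 332 and 831 at an unadjusted p of 0.05. With DESeq2, 4, 1 and 0 members and 11, 4 and 5 pathway genes passed, and over all genes 406 were higher and 233 lower in mesenchymal, 92 and 74 in reticular and 209 and 50 in hematopoietic cells, against 276 and 105, 285 and 262, and 464 and 310.

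Among cells with a Y-linked and no *Xist* UMI, 4 members passed in all mesenchymal cells (*Inhba*, *Bmp6*, *Grem1* and *Tgfb2*) and 2 in reticular cells. In all mesenchymal cells of that set 12 pathway genes passed. Over all genes 5.6% and 2.04% passed in these cells, against 2.78% and 4.81%. With the study's filter alone, 2 members passed in reticular cells (all genes 2.87%) and 11 pathway genes in all mesenchymal cells (4.71%), where no TMM gave 11 (5.83%), the stricter filter 13 (7.08%) and free RNA subtraction 2 (1.48%). In hematopoietic cells, removal of doublets left 0 members and 3 pathway genes (all genes 1.71%), free RNA subtraction 0 and 2 (1.82%), and cells with a *tdTomato* UMI gave 2 members (8.45%), against 6.46%. In classes with 0 members called, 1 passed among erythroid cells with a *tdTomato* UMI (all genes 2.55%). In granulocyte precursors 1 passed with no filter on low counts (0.847%) or without doublets (1.26%), and in neutrophils 1 with no such filter (0.504%). No TMM moved the median of all genes to 0.102 in hematopoietic cells (530 higher and 149 lower) and to -0.14 in neutrophils.

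The sign turned for uncalled values only. *Bmp4* in reticular cells (-0.04) became 0.064 with no TMM, 0.028 with the stricter filter, 0.039 with free RNA subtracted and 0.16 in cells with a Y-linked and no *Xist* UMI, where *Tgfb2* became 0.35. *Bmp4* in granulocyte precursors was -0.028 with DESeq2, and *Tgfb1* in neutrophils -3.18 with free RNA subtracted. In cells with a *tdTomato* UMI, *Inhba* was 0.93 in granulocyte precursors, and *Bmp2* and *Tgfb2* were -0.59 and -0.76 in hematopoietic cells. *Tgfb2* there was -0.20 without doublets. The cause was not tested for any of these. The class with the highest mean level was the same for 10 of 10 members at resolution 0.4, with the study's filter and with free RNA subtracted, and for 9 of 10 at resolution 1.5, where *Inhba* was highest in Tnn-positive cells. At that resolution, Tnn-positive *Inhba* in ABL was 218 and 118 CPM and *Tgfb2* 136 and 215. In CONT, with 3 cells in each replicate, *Inhba* was at 0 and 85.3 CPM (4 UMIs in replicate 2) and *Tgfb2* at 103 and 213. The libraries behind a class mean differed between settings, which limits this agreement. At resolution 0.4, Tnn-positive cells and chondrocytes were named in replicate 1 only. With the study's filter, Tnn-positive and joint-lining cells were named in ABL of replicate 2 only. With 1 replicate left out, values had no test. The Y-linked alternative gave no value in erythroid cells, granulocyte precursors and neutrophils, nor did the study's and the stricter filter in granulocyte precursors.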

Other observations

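In ABL of replicate 2, 4 mesenchymal clusters without a name held members at levels of their own. A cluster with cycling genes (*Top2a*, *Mki67*, 125 cells) had *Inhba* at 258 CPM and *Tgfb2* at 158. A cluster led by *Clec3b* and *Mfap5* (485 cells) had *Tgfb2* at 136 and *Inhba* at 65.1 CPM, one led by *Dio2*, *Mfap4* and *Tnmd* (49 cells) had *Tgfb3* at 245 CPM, and one led by *Fabp4*, *Spp1* and *Acta2* (129 cells) had *Inhba* at 91.7 CPM. These levels came from 1 library and were not tested. In CONT of replicate 2 the same clusters held 1, 6, 21 and 21 cells, in the order cycling, *Clec3b*, *Dio2* and *Fabp4*. The 1 cycling cell held 0 *Inhba* and 0 *Tgfb2* UMIs. The *Clec3b* cluster there had *Tgfb2* at 276 CPM (31 UMIs), above ABL, and *Inhba* at 35.6 (4 UMIs). *Tgfb3* was at 84.3 CPM in the *Dio2* cluster and *Inhba* at 38.3 in the *Fabp4* cluster.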
